A study of Mus musculus with 4 samples.

Results

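Cyclins and the kinases they switch on were followed here through a microRNA pulldown, as 10 transcripts: the D cyclins Ccnd1, Ccnd2 and Ccnd3, the E cyclins Ccne1 and Ccne2, cyclin A2 (Ccna2), the B cyclins Ccnb1 and Ccnb2, and the kinases Cdk1 and Cdk2. They were chosen by gene symbol, with the levels in the miR-206 and control pulldowns already known. All 10 were found among the 28649 gene rows, and all 10 passed the filter on low counts, with at least 34.7 estimated counts in every library. Because that contrast was in view when they were chosen, their values in it are a description without a test.

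The cells were fibro-adipogenic progenitors (FAPs), mesenchymal stromal cells that lie between the fibres of skeletal muscle, sorted by the surface protein Sca1 from wild-type C57Bl/6 mice. One group of cells received a biotin-tagged miR-206 mimic and the other a biotin-tagged control mimic. Transfection lasted 24 hours after growth to about 80% confluency in a serum-rich medium with FGF, and RNA attached to the mimic was captured after a further 48 hours in basal medium with horse serum, so all cells shared this history. Each group has 2 libraries, and the labels do not say whether these came from separate mice or cultures, so a p-value here reflects the spread among these libraries alone, and that spread may be technical. No library of total RNA from the same cells was analysed here. Capture by either mimic, the amount of a transcript per cell and the number of cells that hold it therefore cannot be told apart. Enriched and depleted compare the miR-206 pulldown with the control pulldown, and which mimic a gap stems from was not tested.

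D cyclins answer to growth signals and, with the kinases Cdk4 and Cdk6, release the brake that the RB protein puts on E2F transcription factors. E cyclins with Cdk2 start DNA synthesis, cyclin A2 serves both Cdk2 and Cdk1 during DNA synthesis and G2, and B cyclins with Cdk1 drive mitosis. miR-206, which skeletal muscle makes in high amounts, binds transcripts mainly through its seed, the bases near its 5′ end, and Ccnd1 has been reported among its targets in other cell types.

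The labels name miR-206 without saying which mature strand, and the 3p strand is shown. It is given from RefSeq, from chromosome 1 (GRCm38.p6, 20679055 to 20679076, plus strand), with the seed, bases 2 to 8, in capitals.
mmu-miR-206-3p: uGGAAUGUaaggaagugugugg
A DNA-letter match to this seed reads ACATTCC. Whether the captured cyclin transcripts hold it was not analysed here, and the sources used here do not give the sequence of either mimic.

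The libraries held 14566568 and 15426666 estimated counts for miR-206 and 8883197 and 14261566 for the control. Between replicates, log2 CPM (counts scaled by library size) correlated at r = 0.97 for miR-206 and 0.95 for the control, and between the groups at 0.83 to 0.86. FAP markers were present in every library. Their summed TPM (abundance scaled by transcript length and library) was 4163 and 4476 in miR-206 libraries and 2661 and 3425 in control libraries. Osr1, with means of 1322 against 92.8 TPM, and Cd34, with 924 against 153 TPM, weighed on that gap. Of the 8, 3 were enriched, Cd34, Osr1 and Thy1, and 0 depleted (edgeR adjusted p under 0.05), beside 15.3% and 6.19% of all genes tested. The other 5 were not called and did not move together. Dcn (log2 fold -0.48 ± 0.35, SE) and Col1a1 (-0.72 ± 0.37) were lower in both miR-206 libraries, and Ly6a (0.73 ± 0.37) was higher in TMM-scaled CPM. Pdgfra and Tcf7l2 overlapped on that scale. Endothelial markers summed to 44.6 and 37.4 TPM against 110.2 and 69.6 TPM (2 of 7 tested enriched, 1 depleted), myogenic markers to 43.4 and 30.9 against 43.4 and 46.8 TPM (2 of 7 and 1), and immune markers to 4.9 and 6.5 against 20.1 and 9.2 TPM (4 tested, not called), each in miR-206 against control libraries. Cldn5 was the only one of the 32 markers at 0 in all libraries, and the part of other cell types in the results was not tested.

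Of the 10 transcripts, the B cyclin Ccnb1 showed the widest gap. Ccnb1, whose product cyclin B1 activates Cdk1 for entry into mitosis, stood at 6.48 and 10.96 TPM in miR-206 libraries and at 1048 and 2172 TPM in control libraries. In miR-206 libraries it ranked 5988th and 4468th of all rows by TPM, and in control libraries 69th and 30th. In the control pulldown Ccnb1 exceeded every other of the 10 transcripts, while in the miR-206 pulldown it lay beside Ccnb2 and Cdk1. On the CPM scale with TMM, Ccnb1 averaged 25.8 ± 7.35 in miR-206 libraries and 2580 ± 1382 in control libraries (SD, n = 2 each). Its log2 fold was -6.64 ± 0.55 (SE). The groups did not overlap, and their nearest libraries lay 5.69 apart on the log2 scale, against a distance between replicates of 0.59 for miR-206 and 1.15 for the control. Ccnb1 sits on chromosome 13 (GRCm38, 100778739 to 100786486).

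Ccnb2, the second mitotic B cyclin (chromosome 9, 70407689 to 70421554), differed far less. Its level was 8.58 and 6.65 TPM in miR-206 libraries, against 37.0 and 39.0 TPM in control libraries, and its log2 fold on the TMM scale was -1.38 ± 0.31 (SE). The groups did not overlap, and without miR-206 replicate 2 Ccnb2 was not called depleted at the threshold used across all genes. Ccnb1 therefore made up 43.1% and 62.2% of the summed TPM of Ccnb1 and Ccnb2 in miR-206 libraries but 96.6% and 98.2% in control libraries.

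A ratio of 2 transcripts within a library does not depend on how libraries are scaled to each other. The log2 ratio of Ccnb1 to Ccnb2 counts was 0.27 and 1.32 in miR-206 libraries and 5.46 and 6.46 in control libraries, a difference of -5.16, or 35.9-fold. Measured against Cdk1 instead, Ccnb1 differed by -5.83. The log2 ratio of Ccnb2 to Cdk1 was -0.07 and -0.39 in miR-206 and 0.52 and 0.35 in control libraries, a smaller difference of -0.67 between groups that did not overlap.

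**Figure D1:**
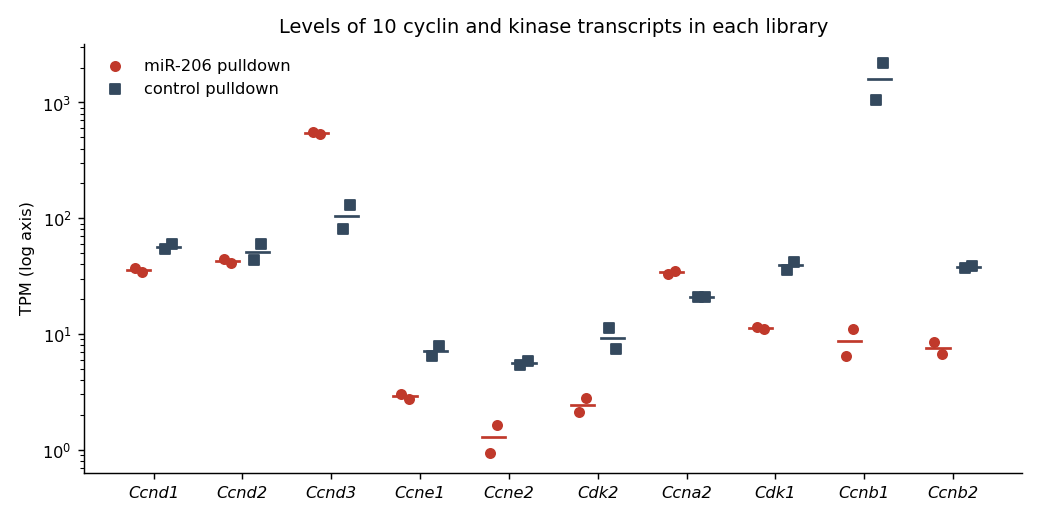
Levels of the 10 transcripts in TPM on a log axis, with 1 point per library and a bar at the mean of the 2 libraries of a group. Ccnb1 spans 6.48 to 10.96 TPM in the miR-206 pulldown and 1048 to 2172 TPM in the control pulldown, and Ccnd3 reaches 538 to 552 TPM in the miR-206 pulldown against 80.5 to 131 TPM in the control pulldown.

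Cdk1, the kinase that both B cyclins activate (chromosome 10, 69335146 to 69352912), had 11.6 and 10.95 TPM in miR-206 libraries and 36.0 and 42.2 TPM in control libraries. Its log2 fold on the TMM scale was -0.74 ± 0.31 (SE), and it was lower in both miR-206 libraries than in either control library. Cdk2, the partner of cyclins E and A (chromosome 10, 128697938 to 128705051), had 2.12 and 2.78 TPM in miR-206 libraries and 11.2 and 7.42 TPM in control libraries, and its TMM-scaled level averaged 7.35 ± 1.06 CPM in miR-206 libraries and 14.7 ± 3.65 CPM in control libraries (SD, n = 2 each). The kinases kept similar proportions to each other: Cdk1 was 84.6% and 79.8% of their summed TPM in miR-206 libraries and 76.3% and 85.0% in control libraries, and these ranges overlap.

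Ccnd3 showed the widest gap in the other direction. This D cyclin (chromosome 17, 47505051 to 47599689) stood at 552 and 538 TPM in miR-206 libraries and at 80.5 and 131 TPM in control libraries. It ranked 119th and 109th of all rows in miR-206 libraries, against 1035th and 745th in control libraries. Scaled with TMM it averaged 1334 ± 87.5 CPM in miR-206 libraries and 135.8 ± 48.1 CPM in control libraries (SD, n = 2 each), a log2 fold of 3.30 ± 0.40 (SE). The nearest libraries of the groups lay 2.91 apart on the log2 scale, more than the 0.13 between the miR-206 replicates and the 0.74 between the control replicates.

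The other D cyclins did not share this gap. Ccnd1 (chromosome 7, 144929931 to 144939831) had 37.1 and 34.4 TPM in miR-206 libraries and 54.3 and 59.6 TPM in control libraries. Ccnd2 (chromosome 6, 127125162 to 127152188) had 44.5 and 40.8 TPM against 43.6 and 59.5 TPM, so its groups overlap in TPM. With TMM scaling both came out slightly higher in the miR-206 pulldown, with log2 folds of 0.27 ± 0.31 for Ccnd1 and 0.66 ± 0.33 for Ccnd2 (SE). Their direction thus rests on the scaling, and the distance between the nearest libraries was 0.08 and 0.31 on the log2 scale.

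Within libraries, the log2 ratio of Ccnd3 to Ccnd1 counts was 2.85 and 2.92 for miR-206 and -0.46 and 0.10 for the control, a difference of 3.07, or 8.38-fold. Against Ccnd2 it was 1.95 and 2.04 for miR-206 and -0.78 and -0.55 for the control, a difference of 2.66, or 6.33-fold. Ccnd1 over Ccnd2 was -0.90 and -0.88 for miR-206 and -0.32 and -0.65 for the control, a difference of -0.40, so these groups were separate but close. In shares of D cyclin TPM, Ccnd3 held 87.1% and 87.7% in miR-206 libraries and 45.1% and 52.3% in control libraries.

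**Figure D2:**
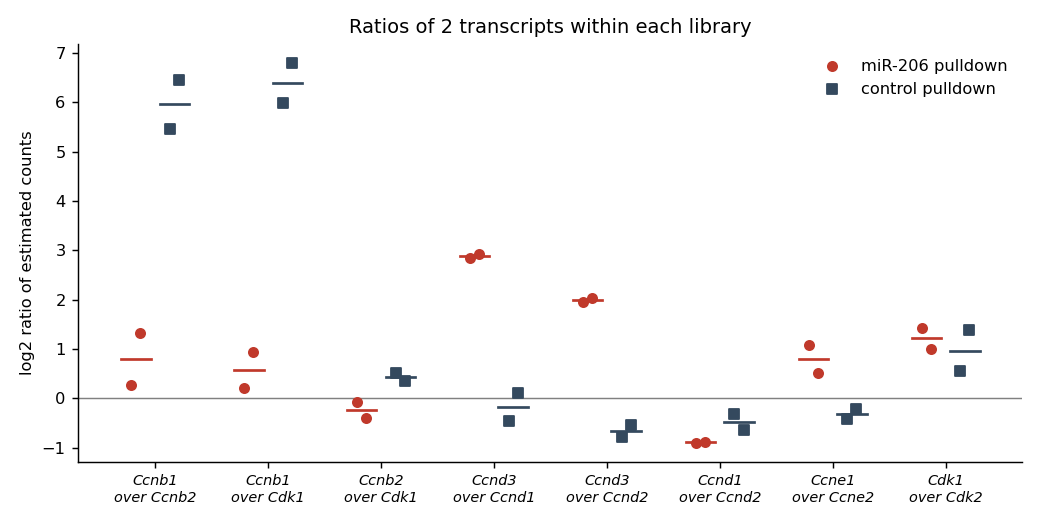
Log2 ratios of estimated counts of 2 transcripts within each library, with 1 point per library and a bar at the group mean. Ccnb1 over Ccnb2 lies at 0.27 and 1.32 in the miR-206 pulldown and at 5.46 and 6.46 in the control pulldown, Ccnd3 over Ccnd1 at 2.85 and 2.92 against -0.46 and 0.10, and Cdk1 over Cdk2 overlaps between the groups.

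Ccna2 (chromosome 3, 36564865 to 36573038) was the other transcript with higher levels in the miR-206 pulldown on every scale used. It had 33.3 and 35.3 TPM in miR-206 libraries and 20.8 and 20.7 TPM in control libraries, and the groups did not overlap. Its TMM-scaled level was 132.7 ± 1.04 CPM in miR-206 libraries and 40.7 ± 3.30 CPM in control libraries (SD, n = 2 each), a log2 fold of 1.71 ± 0.30 (SE). With total counts alone its log2 fold was 0.59 and it was not called. Cyclin A2 and its partner Cdk2 thus differed in opposite directions with TMM: the log2 ratio of their counts was 4.31 and 4.04 in miR-206 libraries and 1.14 and 1.82 in control libraries.

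The E cyclins were among the less abundant members, beside Cdk2, and Ccne2 had the lowest TPM in every library. Ccne1 (chromosome 7, 38097984 to 38107490) had 3.06 and 2.75 TPM in miR-206 libraries and 6.45 and 7.84 TPM in control libraries, yet its TMM-scaled levels overlapped, with a log2 fold of -0.28 ± 0.43 (SE). Ccne2 (chromosome 4, 11190433 to 11204779) had 0.929 and 1.63 TPM in miR-206 libraries and 5.44 and 5.85 TPM in control libraries, with a log2 fold of -1.35 ± 0.45 (SE). Its values rest on few reads, with 34.7 and 54.7 estimated counts for miR-206 and 145.3 and 232.4 for the control, and the log2 ratio of Ccne1 to Ccne2 was 1.08 and 0.51 for miR-206 against -0.41 and -0.21 for the control.

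Ordered by TPM, the miR-206 libraries ran from Ccnd3 through Ccnd2, Ccnd1 and Ccna2 to Cdk1, the B cyclins, Ccne1, Cdk2 and Ccne2. In that order Ccnd1 and Ccna2 changed places between the replicates, as did Ccnb1 with Cdk1 and Ccnb2, and Cdk2 with Ccne1, so those neighbours do not differ beyond their spread. In the control libraries the order was Ccnb1, Ccnd3, Ccnd1, Ccnd2, then Ccnb2 and Cdk1, then Ccna2, and last Cdk2, Ccne1 and Ccne2. There Ccnb2 and Cdk1 changed places, as did Cdk2 and Ccne1, and Ccnd1 and Ccnd2 were nearly equal in replicate 2, at 59.6 and 59.5 TPM. Summed over the 10 transcripts, the miR-206 libraries held 699.6 and 684.4 TPM and the control libraries 1343.3 and 2544.4 TPM. Without Ccnb1 the sums were 693.1 and 673.5 TPM for miR-206 and 295.3 and 372.5 TPM for the control, where Ccnd3 made up most of the miR-206 sum. The other 8 members summed to 141.2 and 135.3 TPM in miR-206 libraries and to 214.8 and 242.0 TPM in control libraries. All gene rows together summed to 665223 and 629789 TPM in miR-206 libraries and to 743941 and 729176 TPM in control libraries. TPM levels of the groups are therefore not on an equal total.

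By the threshold used across all genes (edgeR quasi-likelihood test, adjusted p under 0.05), 2 of the 10 were called enriched, Ccnd3 and Ccna2, and 3 depleted, Ccnb1, Ccnb2 and Ccne2. Of all 15240 genes tested, 15.3% were called enriched and 6.19% depleted. Both miR-206 libraries lay above both control libraries in TMM-scaled CPM for 4 members and below them for 5, and Ccne1 overlapped. Over all tested genes these shares were 29.7% and 32.3%. The median log2 fold was -0.51 over the members and -0.11 over all genes, and nothing is read from these counts because the members were chosen with them known. Ccne2 was not called without miR-206 replicate 1, miR-206 replicate 2 or control replicate 2. Cdk1 was called depleted without control replicate 1, and Cdk2 without control replicate 2.

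Scaling shifted the members in the same direction. Total counts alone moved the median log2 fold of all genes to -1.22, deposited TPM to -0.83 and the upper quartile to -0.40, against -0.11 with TMM. Over these scalings and RLE (median-of-ratios size factors) the log2 fold ran from -7.69 to -6.62 for Ccnb1, from -2.51 to -1.36 for Ccnb2, from 2.20 to 3.32 for Ccnd3 and from 0.59 to 1.73 for Ccna2. Ccnd1 ran from -0.85 to 0.30 and Ccnd2 from -0.45 to 0.68, and both changed sign. Taken relative to the median of all genes, Ccnd1 ran from 0.17 to 0.39, Ccnd2 from 0.58 to 0.78, Cdk1 from -0.92 to -0.62 and Cdk2 from -0.91 to -0.89. With total counts alone 1 member was called enriched and 7 depleted, with deposited TPM 2 and 7, and with the upper quartile 2 and 5. Calls over all genes moved with them. Of 15240 genes tested, total counts gave 1070 enriched and 6909 depleted, TPM 1097 and 5841, and the upper quartile 1870 and 1962. Nothing is read from the member counts under these scalings. The authors' deposited table, which uses TPM, gives Ccnb1 a log2 fold of -7.53, the second lowest of its 14870 rows, and Ccnd3 one of 2.37, its rank 451 from the top.

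**Figure D3:**
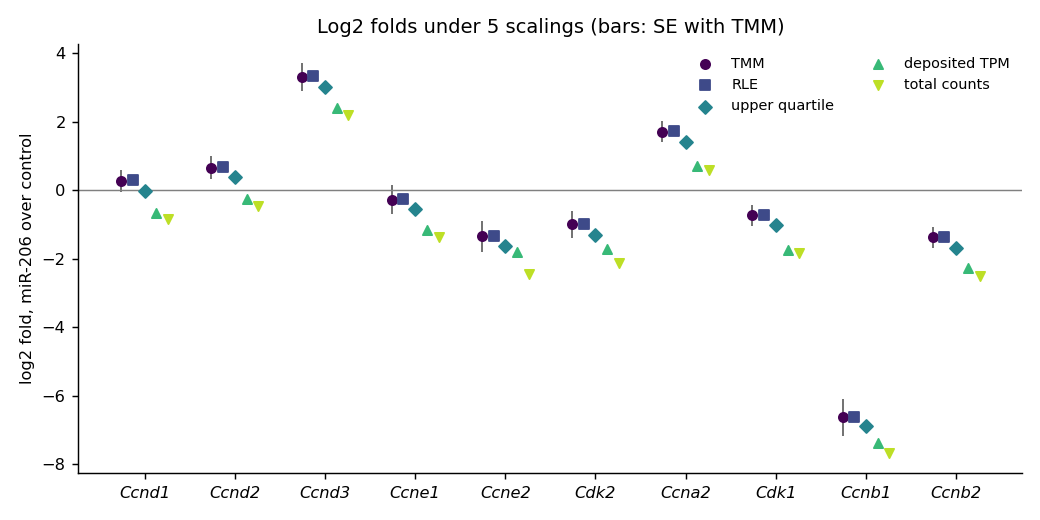
Log2 folds, miR-206 over control, of the 10 transcripts under 5 scalings, with the SE of the TMM fit as bars. Ccnb1 lies between -7.69 and -6.62 and Ccnd3 between 2.20 and 3.32, while Ccnd1 and Ccnd2 cross 0.

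Read assignment differs between the members. Estimated counts were whole numbers, within 0.01, in all 4 libraries for Ccnb2, Ccnd2, Cdk1 and Cdk2, and fractional in at least some libraries for the other 6, as kallisto gives when it divides reads between transcripts that share sequence. RefSeq lists pseudogenes named for Ccnb1, Ccnb2 and Ccnd3, and whether their reads enter these rows was not tested. The estimated count per TPM follows the mean length of the transcripts behind a row. Set against that of Ccnb2, it was 1.60 and 1.52 for Ccnb1 in miR-206 libraries and 1.56 and 1.58 in control libraries, and 1.27 and 1.27 against 1.29 and 1.26 for Ccnd3. Neither large gap came with a change in that length. For Ccne2 it was 2.07 and 1.59 in miR-206 against 1.89 and 2.01 in control libraries, so 1 of its miR-206 libraries stood apart.

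The genes whose levels over the 4 libraries were most like those of Ccnb1, by the distance of centred log2 CPM and among 8593 genes with a mean of at least 10 CPM, were Echs1 (distance 0.36), Hmgcs1 (0.63) and Tmem263 (0.73). Echs1, a mitochondrial enoyl-CoA hydratase, had 26.9 and 30.8 CPM in miR-206 libraries and 2002 and 4938 CPM in control libraries. For Ccnd3 they were Casp6 (0.06), Mapk6 (0.10) and Capn6 (0.12), with 252.9 and 242.5 CPM for Casp6, a caspase gene, in miR-206 libraries and 19.1 and 31.5 CPM in control libraries. With 4 libraries many genes can lie this close.

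Other cell cycle genes were taken as 7 lists from knowledge of their roles, and they are not members. The lists were chosen with earlier results of these data known, so their counts of calls are a description and nothing is read from them. Of 122 listed genes, 121 had a row and 119 were tested, and 19 (16.0%) were enriched and 15 (12.6%) depleted (edgeR adjusted p under 0.05), beside 15.3% and 6.19% of all genes. The median log2 fold of the 119 was -0.20. Below, rose and fell mean higher or lower in the miR-206 pulldown than in the control pulldown, not a change measured in the cells. The upper quartile, total counts and TPM lower the median log2 fold of all genes, which by construction favours depleted over enriched calls, and the counts of calls kept under them do not compare the directions. Of the 19 enriched genes, Cdk13, Cdk16, Cdkn2b and E2f8 passed under each of them and RLE. Without each library in turn, 10 of the enriched and 6 of the depleted passed every time.

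RB, E2F and DREAM complex genes, which carry the signal of D cyclins to transcription, had 4 of 19 enriched and 0 depleted (1 at unadjusted p under 0.05, 0 by DESeq2), with a median log2 fold of 0.47. E2f8, an atypical E2F that represses transcription, had 875.0 and 551.8 CPM in miR-206 libraries and 9.12 and 15.7 CPM in control libraries, a log2 fold of 5.84 ± 0.46 (SE) at an edgeR adjusted p of 9.52e-08. Tfdp1, the DNA-binding partner of E2Fs, rose by 1.61 ± 0.31 on the log2 scale (SE; edgeR adjusted p = 0.000878), Mybl2, the B-Myb gene, by 2.23 ± 0.48 (0.00234) and E2f1, an activating E2F, by 1.14 ± 0.34 (0.0238). Those 3 lost their calls with total counts and with TPM, and E2f1 also with the upper quartile and without miR-206 replicate 2 or control replicate 1 (highest edgeR adjusted p = 0.175).

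Other kinases of the family had 5 of 17 tested enriched and 0 depleted (2 at unadjusted p under 0.05, 0 by DESeq2). Cdk16 had 218.3 and 312.1 CPM in miR-206 libraries and 40.4 and 31.9 CPM in control libraries, a log2 fold of 2.88 ± 0.35 (SE) at an edgeR adjusted p of 5.89e-06. Cdk13, a kinase of transcription elongation, had 235.3 and 106.7 CPM in miR-206 libraries and 14.5 and 16.8 CPM in control libraries (3.45 ± 0.39, edgeR adjusted p = 6.74e-06). Cdk6, one of the D cyclin kinases, rose by 1.59 ± 0.33 (0.00173), and Cdk14 by 1.12 ± 0.31 (0.0149), but both lost their calls with total counts and with TPM, and Cdk14 without control replicate 2 (edgeR adjusted p = 0.0594) and changed sign under 2 scalings. Cdk4, the other D cyclin kinase, named after its values were seen, had a log2 fold of -0.29 ± 0.31 and did not pass (edgeR adjusted p = 0.549).

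Other cyclins had 4 of 16 enriched and 1 depleted, with a median log2 fold of 0.13. Ccnk, which pairs with Cdk12 and Cdk13, rose by 1.49 ± 0.32 (edgeR adjusted p = 0.00209), Ccnh, the partner of Cdk7, by 1.41 ± 0.31 (0.00263) and Ccny, which activates Cdk14 and Cdk16, by 1.11 ± 0.31 (0.0156). Ccnl2, a cyclin linked to splicing, fell by 1.54 on the log2 scale (SE 0.36, edgeR adjusted p = 0.00515). The 4 enriched cyclins each lost the call under at least 1 scaling. The calls of Ccnh and Ccny were also lost without miR-206 replicate 2, that of Ccny without miR-206 replicate 1 as well. Ccni, the remaining enriched cyclin, named after its values were seen, had a log2 fold of 0.91 ± 0.30 and changed sign under 2 scalings. Its call was also lost without miR-206 replicate 1, miR-206 replicate 2 or control replicate 1.

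CDK inhibitor genes were split, 2 of 8 being enriched and 2 depleted. Cdkn2b, encoding p15, which blocks Cdk4 and Cdk6, had 98.8 and 44.6 CPM in miR-206 libraries and 13.4 and 15.4 CPM in control libraries (log2 fold 2.32 ± 0.37, edgeR adjusted p = 0.000226). Cdkn1b, encoding p27, an inhibitor of Cdk2, had 83.7 and 111.2 CPM in miR-206 libraries and 267.9 and 249.3 CPM in control libraries (-1.41 ± 0.32, edgeR adjusted p = 0.00378). Cdkn2d, a gene of the p15 family, rose by 1.21 ± 0.32 (0.0115), and Cdkn3, a phosphatase of CDKs, fell by 1.28 (SE 0.38, edgeR adjusted p = 0.0220). The call of Cdkn2d was lost with total counts, with TPM and without miR-206 replicate 1, and that of Cdkn3 without either miR-206 replicate (highest edgeR adjusted p = 0.195).

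Phosphatases, kinases and small subunits that switch CDKs on or off had 0 of 9 tested enriched (0 at unadjusted p under 0.05 and 0 by DESeq2) and 3 depleted, with a median log2 fold of -0.86. Cdc25a, which removes inhibitory phosphates from CDKs, fell by 1.77 (SE 0.43, edgeR adjusted p = 0.00671), Cks2, a CDK-binding subunit, by 1.42 (SE 0.36, 0.00884) and Pkmyt1, which phosphorylates Cdk1, by 1.62 (SE 0.56, 0.0460). Cdc25c, the phosphatase of mitotic entry, had a log2 fold of -1.20 ± 0.55 and did not pass (0.138). The 3 calls each depended on single libraries: that of Cdc25a was lost without control replicate 2 (edgeR adjusted p = 0.103), that of Cks2 without miR-206 replicate 1 (0.118) and that of Pkmyt1 without either miR-206 replicate or control replicate 2 (highest edgeR adjusted p = 0.353).

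Mitotic genes had 0 of 25 tested enriched (1 at unadjusted p under 0.05, 0 by DESeq2) and 7 depleted (4 by DESeq2), with a median log2 fold of -0.45. Kif20a, a kinesin of cytokinesis, had 7.71 and 8.10 CPM in miR-206 libraries and 26.03 and 30.32 CPM in control libraries, a log2 fold of -1.83 ± 0.34 (SE) at an edgeR adjusted p of 0.000587. Nusap1, a spindle protein, fell by 1.61 (SE 0.34, edgeR adjusted p = 0.00180), Kif23, another kinesin of cytokinesis, by 1.41 (SE 0.37, 0.0111) and Ect2, a gene of cytokinesis, by 1.39 (SE 0.41, 0.0225). Kif20a and Nusap1 were the 2 of these 7 that passed without each library in turn. Kif23 and Ect2 lost their calls without miR-206 replicate 2 or control replicate 2, Ect2 also without miR-206 replicate 1 (highest edgeR adjusted p = 0.233). The remaining 3 depleted genes, Ttk, Cdca8 and Tpx2, named after their values were seen, also lost theirs when miR-206 replicate 2 or control replicate 2 was left out, Ttk and Tpx2 without miR-206 replicate 1 as well (highest edgeR adjusted p = 0.381, for Ttk). None of the 25 approached the log2 fold of Ccnb1, their lowest being -1.83.

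Ubiquitin ligase genes that destroy cyclins, the SCF and APC/C groups, had 4 of 25 enriched and 2 depleted. Anapc10, an APC/C subunit, had 12.0 and 16.2 CPM in miR-206 libraries and 96.3 and 165.7 CPM in control libraries, a log2 fold of -3.21 ± 0.36 (SE) at an edgeR adjusted p of 2.62e-06. Anapc5, another subunit, fell by 1.35 (SE 0.32, edgeR adjusted p = 0.00546), while the subunit gene Cdc27 rose by 1.61 ± 0.33 (0.00133) and Fbxo31, an F-box gene whose product targets cyclin D1, by 1.85 ± 0.39 (0.00237). The enriched calls of Cdc27 and Fbxo31 were lost with total counts and with TPM, and Fbxo31 changed sign under 1 scaling and lost its call without miR-206 replicate 1 (edgeR adjusted p = 0.189).

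**Figure D4:**
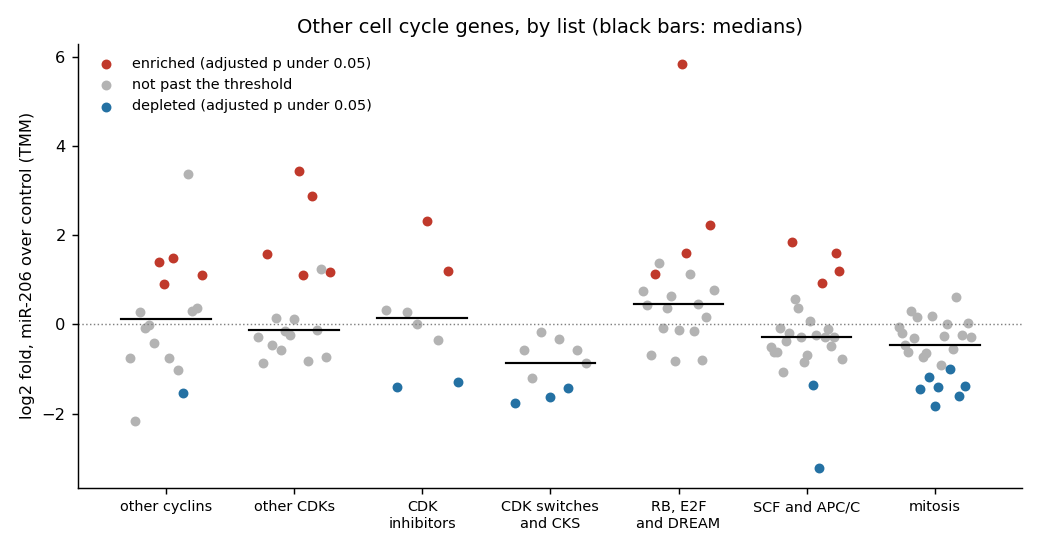
Log2 folds, miR-206 over control with TMM, of the 119 tested genes of the 7 lists, 1 point per gene, coloured by the edgeR call, with a black bar at each list's median. E2f8 lies at 5.84 and Anapc10 at -3.21, and all 7 called genes of the mitosis list lie below 0.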

How the data were processed

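RNA captured by the miR-206 mimic was set against RNA captured by the control mimic, with 2 libraries per group. SMARTer and NuGEN kits, which amplify cDNA, were used for the libraries, per the labels. The submitters' processing notes name kallisto and the mm10 build, and the authors deposited an estimated count per gene row and library (an expected count in kallisto's sense). No version, transcript annotation or step from transcripts to gene rows is stated in the sources read. The authors also deposited TPM, per the file headers. A second deposited sheet holds their group means of TPM and the log2 fold between them, without a test. Each column was matched to a sample by the barcode in its title, and 0 columns stayed unmatched.

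Counts were then rounded and tested with edgeR 4.0.16 in R 4.3.3 (glmQLFit with robust estimation, glmQLFTest, TMM, group as the only term) on 15240 genes kept by filterByExpr, with Benjamini-Hochberg adjustment over all of them and a threshold of 0.05. The steps were tested on simulated data in which gene changes were equal in both directions. Those data held no group-wide shift, so they could not test the choice of scaling. The SE of a log2 fold is its size divided by the square root of the F statistic. Alternatives used limma 3.58.1 on log2(TPM + 0.5), where folds of low genes are understated, and DESeq2 1.42.0. Ratios within a library used counts plus 0.5. A level of 3 counts equals 0.330 and 0.264 CPM in the miR-206 libraries and 0.209 and 0.157 CPM in the control libraries, a limit from counting error only. Named genes are the 10 members, up to 4 genes per list with the smallest p and a mean of at least 1 CPM, and 3 genes most like Ccnb1 and Ccnd3. The members and lists were chosen with earlier results of these data known. Gene positions come from RefSeq on GRCm38.p6, where all 10 symbols matched.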

Additional observations from a re-analysis of the deposited data

How the results depend on the processing

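The differences of log2 ratio within libraries kept their direction with deposited TPM, with 5 counts added and without each library: from -5.69 to -4.64 for Ccnb1 over Ccnb2, from 2.79 to 3.34 for Ccnd3 over Ccnd1 and from 2.55 to 2.77 for Ccnd3 over Ccnd2. Without each library the log2 fold of Ccnb1 ran from -7.11 to -5.95 and that of Ccnd3 from 2.97 to 3.71. Over the other alternatives, 0 members that were called changed sign. The upper quartile gave 1962 depleted genes and 27 depleted genes of the 7 lists, against 944 and 15 with TMM. Total counts alone gave 1070 enriched and 6909 depleted genes, and 4 and 78 in the lists. Deposited TPM gave 1097 and 5841, and 5 and 64. With TMM the enriched were 2327 and 19. Leaving out single libraries moved the depleted genes between 456 (miR-206 replicate 1 left out) and 1567 (control replicate 1 left out), and those of the lists between 9 (with any of miR-206 replicate 1, miR-206 replicate 2 and control replicate 2 left out) and 23 (control replicate 1 left out). Where a group keeps 1 library, that library is assumed to vary like the other group. The cause of these moves was not tested.

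Replicate numbers are shared by the groups, but their deviations did not go together (r = -0.06), and nothing in the labels pairs the samples. With the replicate block 2576 genes were enriched and 1129 depleted, and 21 and 19 in the lists. No total RNA was analysed here, and low levels, such as those of Ccne2, are limited by depth.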
